A study of Mus musculus with 20 samples.

Results

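Genes that mark brain regions outside the striatum were followed over all 20 arrays. There are 9 of them among the 20972 gene symbols of the array, read by 13 of its 55681 probes. They were chosen by symbol: Tbr1, Neurod6, Emx1 and Cux2 for the cerebral cortex, Prox1 for the hippocampus, Tcf7l2 for the thalamus, and Ttr, Kl and Folr1 for the choroid plexus. A probe was assigned to a gene through the RefSeq transcript that names it. The question they address is which tissue was in the tube, since the sample labels give the left hemisphere of a perfused brain and the methods give the caudate putamen, the dorsal part of the striatum. The labels and the methods also differ on the age of the mice and on the time of collection, and the methods alone name a challenge injection.

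All mice were males on a C57BL/6J background, 6 to 7 weeks old by the labels. Every mouse carried a doxycycline-dependent Tet-binding protein under the GFAP promoter, which is active mainly in astrocytes, and every mouse received doxycycline at 100 mg/kg intraperitoneally for 7 days. Tat+ mice also carried the HIV protein Tat under a TRE promoter, and Tat- mice lacked that transgene, so that doxycycline alone was common to all groups. Methamphetamine (Meth) at 2 mg/kg or 0.9% saline (Sal) was injected once a day for 7 days, and the labels give collection 24 h after the last injection. By the methods, every mouse, those of the saline groups included, also received a single lower dose of Meth after a period without injections, shortly before collection. If so, no group was free of Meth, and Sal and Meth stand for the daily injections. This gave 4 groups of 5 mice with 1 array each: neither Tat nor daily Meth (Tat-/Sal), daily Meth without Tat (Tat-/Meth), Tat without daily Meth (Tat+/Sal) and both (Tat+/Meth). Tat RNA itself was not analysed here.

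The striatum consists mostly of inhibitory medium spiny neurons that make dopamine receptors, dopamine-regulated phosphoproteins and opioid peptides. The cortex lies directly over it and is built on glutamatergic projection neurons, whose identity is set by T-box, basic helix-loop-helix and homeobox factors such as Tbr1, Neurod6, Emx1 and Cux2. The choroid plexus hangs in the ventricle that borders the caudate putamen and secretes cerebrospinal fluid. Its epithelium makes transthyretin in very large amounts, and the ventricle wall between both tissues is lined by ciliated ependymal cells.

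Promoters are shown for Kl and Neurod6, and for Neurod2, the gene whose signal ran closest to that of Tbr1. They are the 250 bases before the RefSeq start (assembly GRCm38.p6, used for the sequences only), written 5′ to 3′ with capitals for a match. Of the 9 genes, 7 had an entry, and Ttr and Folr1 had none.
Kl, chr5:150952357-150952606, forward strand: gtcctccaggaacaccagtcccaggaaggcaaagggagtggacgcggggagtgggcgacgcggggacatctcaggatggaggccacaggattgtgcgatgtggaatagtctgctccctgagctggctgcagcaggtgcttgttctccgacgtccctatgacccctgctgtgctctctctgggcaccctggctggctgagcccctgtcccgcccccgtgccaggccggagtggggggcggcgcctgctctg
Neurod6, chr6:55681264-55681513, reverse strand: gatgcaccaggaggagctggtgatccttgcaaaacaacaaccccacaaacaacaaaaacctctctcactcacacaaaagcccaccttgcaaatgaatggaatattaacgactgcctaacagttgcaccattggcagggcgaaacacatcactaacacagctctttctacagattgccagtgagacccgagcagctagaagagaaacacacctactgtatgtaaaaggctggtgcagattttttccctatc
Neurod2, chr11:98329646-98329895, reverse strand: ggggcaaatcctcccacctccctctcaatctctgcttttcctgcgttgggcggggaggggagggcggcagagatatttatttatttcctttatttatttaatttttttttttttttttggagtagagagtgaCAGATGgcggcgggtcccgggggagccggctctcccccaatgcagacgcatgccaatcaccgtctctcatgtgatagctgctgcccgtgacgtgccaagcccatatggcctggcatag
The letters searched on both strands were CAGATG, an E-box form read by NeuroD-type factors, and TAATCC, the core read by Otx-type homeodomain factors. The former was found in 14.4% of 32851 windows of this length, and among the 3 shown it was in that of Neurod2. The latter was found in 6.3% of the windows and in none of the 3.

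Signals are given as log2 of the background-subtracted spot intensity after division by the 75th percentile of the array. They are compared between arrays for 1 probe at a time, because the brightness of different probes is not comparable. Where signals are summed over a list, the brightest probes weigh most, and their share is given. A probe is called well above background by the test of the scanner software. A gene is called changed at a Benjamini-Hochberg adjusted p under 0.05 in limma with a change above 2-fold, and 15102 genes whose mean reached 6 log2 units in at least 1 group were tested. All 9 genes were among them. In these bulk samples fewer cells of a type and less RNA per cell cannot be told apart.

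The arrays came from 3 slides, and slide 1 held the 5 Tat-/Meth arrays and no others. Slide 2 held the 5 Tat-/Sal arrays with 3 of Tat+/Meth, and slide 3 the 5 Tat+/Sal arrays with the other 2 of Tat+/Meth. The bright corner control spots, which do not read mouse RNA, had a log2 signal of 14.66 to 15.06 on slide 1 and of 16.80 to 17.42 on the others. An effect of Meth in Tat- mice and an effect of slide 1 therefore cannot be told apart. Tat-/Sal and Tat+/Sal shared no slide either. Only the Tat+/Meth arrays, 3 on slide 2 and 2 on slide 3, link these slides. An effect of Tat without daily Meth can thus be separated from a difference between slides 2 and 3 only through those few arrays. The number of arrays limits the precision of every value.

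Striatum genes were read throughout. All 18 striatum genes were well above background on all 20 arrays. Their SD within groups ran from 0.079 to 0.484 log2 units with a median of 0.129, against 0.147 for all genes tested. These medians are not at like brightness, since the mean log2 signal of the striatum genes was 15.36 to 15.64 per array and dim genes vary more. Of 10 cerebellum genes, 4 were not well above background on any array: Cbln3, Gabra6, Neurod1 and Ppp1r17. The other 6, Pcp2 and Barhl1 among them, were so on all 20 arrays. Of 9 genes of midbrain and hindbrain monoamine neurons, 4 were so on all 20 arrays, 3 on some, and Slc6a4 and En1 on none.

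Genes of the neighbouring regions were also read, though less completely. On all 20 arrays 13 of 21 genes of cortical projection neurons, 4 of 10 hippocampal genes, 9 of 11 thalamic genes and 12 of 22 choroid plexus genes were well above background, the 9 genes described here included. Many genes of these lists are also expressed, at lower levels, by other brain cells. The genes that stand at 0 of 20 arrays were Neurod1 for the cortex, Iyd for the hippocampus and Cldn2, a claudin of the choroid plexus epithelium.

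The 9 genes differed most in how far replicate arrays of 1 group lay from each other. The SD within groups was 2.72 log2 units for Ttr, which ranked 1 among 15102 genes, 1.16 for Neurod6 (rank 27), 0.80 for Tbr1 (rank 194), 0.71 for Emx1 (rank 282) and 0.64 for Kl (rank 391). It was 0.33 for Folr1, 0.25 for Prox1, 0.19 for Cux2 and 0.14 for Tcf7l2. Dim genes vary more, so each gene was also set among the genes within 0.5 log2 units of its own mean signal. There, 99.9% of 1524 genes had a smaller SD than Ttr, 98.6% of 1468 than Tbr1, 97.6% of 594 than Neurod6 and 94.0% of 1309 than Kl. The share was 84.2% for Emx1 and 89.1% for Folr1, while Cux2 (8.55%), Prox1 (14.4%) and Tcf7l2 (17.1%) were among the steadier genes of their brightness. Neurod6 and Emx1 reached the floor of 6 in 1 group only (means of 6.32 in Tat-/Sal and 6.35 in Tat+/Sal). Genes with a mean signal under 6 were tested only where a group stood higher. The shares of Neurod6 and Emx1 are thus among genes picked in part for their variation.

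**Figure D1:**
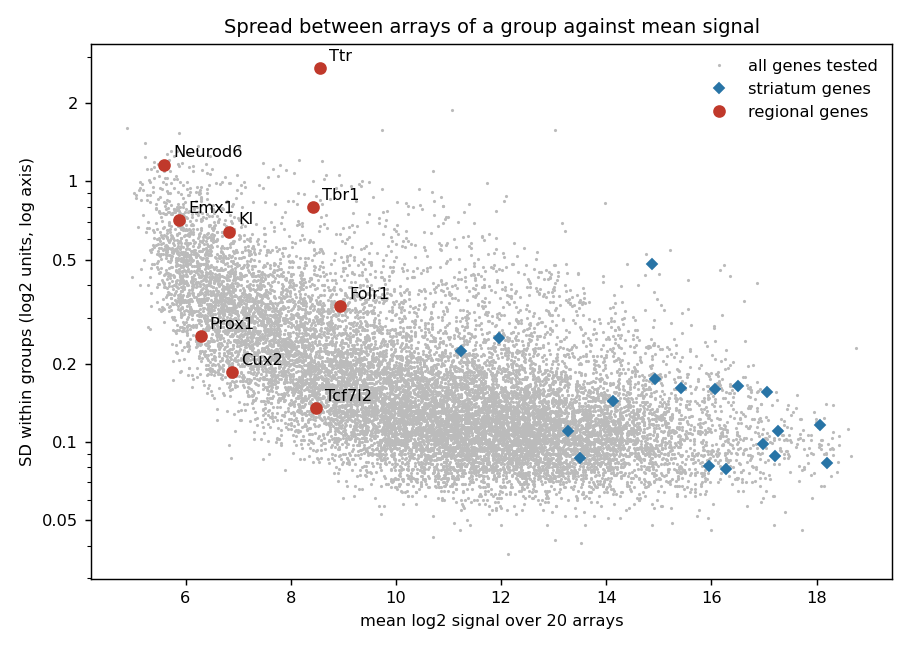
SD within groups (vertical log axis, log2 units) against mean log2 signal over 20 arrays (horizontal axis) for the 15102 genes tested (grey), with the striatum genes as blue diamonds and the 9 regional genes in red. Ttr stands highest of all genes at 2.72, and Tbr1, Neurod6 and Kl lie above most genes of like signal.

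Ttr encodes transthyretin, the carrier of thyroxine and of retinol-binding protein in cerebrospinal fluid. In Tat-/Sal its log2 signal was 10.62, 6.07, 13.38, 6.30 and 10.35 in replicates 1 to 5. It was 12.82, 6.99, 8.0, 11.35 and 8.68 in Tat-/Meth. High and low arrays thus stood side by side in a group, and within Tat-/Sal alone the highest array was 158.7-fold above the lowest.

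In Tat+/Sal the Ttr values were 9.42, 13.34, 4.99, 8.83 and 7.22. In Tat+/Meth they were 4.60, 10.08, 6.18, 6.60 and 5.42. The probe was well above background on 18 of 20 arrays, the exceptions being the arrays at 4.99 and 4.60. The 4 groups overlapped throughout, although 4 of 5 Tat+/Meth arrays lay below all Tat-/Meth arrays.

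No comparison of groups passed for Ttr. Tat+/Meth differed from Tat-/Meth by -2.99 ± 1.60 log2 units (SE, limma adjusted p = 0.123), from Tat-/Sal by -2.77 ± 1.60 (adjusted p = 0.667) and from Tat+/Sal by -2.18 ± 1.60 (adjusted p = 0.602). All 3 differences were within 2 standard errors of 0. Within slide 2, Tat+/Meth differed from Tat-/Sal by -2.39 ± 1.85, and within slide 3 from Tat+/Sal by -2.75 ± 1.84, neither past the threshold.

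Kl encodes klotho, the co-receptor of fibroblast growth factor 23, which the choroid plexus makes strongly and neurons make at a lower level. Its log2 signal was 7.05, 5.82, 7.90, 6.71 and 6.15 in Tat-/Sal and 8.11, 6.37, 6.53, 7.53 and 7.00 in Tat-/Meth. It was 6.79, 7.85, 6.27, 6.77 and 6.40 in Tat+/Sal and 6.50, 6.50, 6.90, 7.04 and 6.41 in Tat+/Meth. The highest Kl array of Tat-/Sal, of Tat-/Meth and of Tat+/Sal was in each case the array with the highest Ttr signal of that group, and in Tat+/Meth it was not. No comparison passed, with differences from -0.44 to 0.38 log2 units and a standard error of 0.38.

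The deviations of Ttr and Kl from their group means ran together over the 20 arrays, with Pearson's r = 0.79 (permutation p within groups = 0.0007, adjusted over 36 pairs of the 9 genes = 0.0252). Spearman's rho was 0.72 (permutation p = 0.00302, adjusted p = 0.109), so the rank correlation did not pass the adjustment. Pearson's r was 0.63 without the 2 arrays farthest from the median of Ttr, 0.59 within slide 2 and 0.95 within slide 3. It was the one pair of 36 whose Pearson correlation passed the adjustment. Among 15053 genes with a value on every array, Kl had the highest r with Ttr (0.785), followed by Smim22 (0.732) and Mettl26 (0.726). The genes closest to Kl were Wdr86 (0.852), Smim22 (0.810) and Ttr.

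Other choroid plexus genes ran with both. Of 14 tested beside the 3 described here, 5 had r above 0.5 with Ttr, against 1.94% of all genes: Sostdc1, an inhibitor of BMP and Wnt signals; the water channel Aqp1; the potassium channel Kcnj13; the chloride channel protein Clic6; and the homeobox factor Otx2. With Kl, 4 of 14 were above 0.5, against 1.87% of all genes: Otx2 (0.71), Aqp1, Kcnj13 and Clic6. No ependyma gene reached 0.5 with Ttr or Kl. The log2 of the summed signal of the 14 genes was 14.95 to 15.43 for Tat-/Meth, 14.63 to 14.97 for Tat-/Sal, 14.53 to 14.76 for Tat+/Meth and 14.68 to 15.03 for Tat+/Sal. Enpp2 alone made 61.4% to 77.8% of that sum. The mean log2 signal of the 14 genes, in which each weighs the same, spanned 8.20 to 8.80 for Tat-/Meth and 8.24 to 8.90 for Tat-/Sal. It spanned 8.38 to 8.68 for Tat+/Meth and 8.20 to 8.99 for Tat+/Sal, so that all 4 groups overlapped. How much choroid plexus each sample held was not tested.

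**Figure D2:**
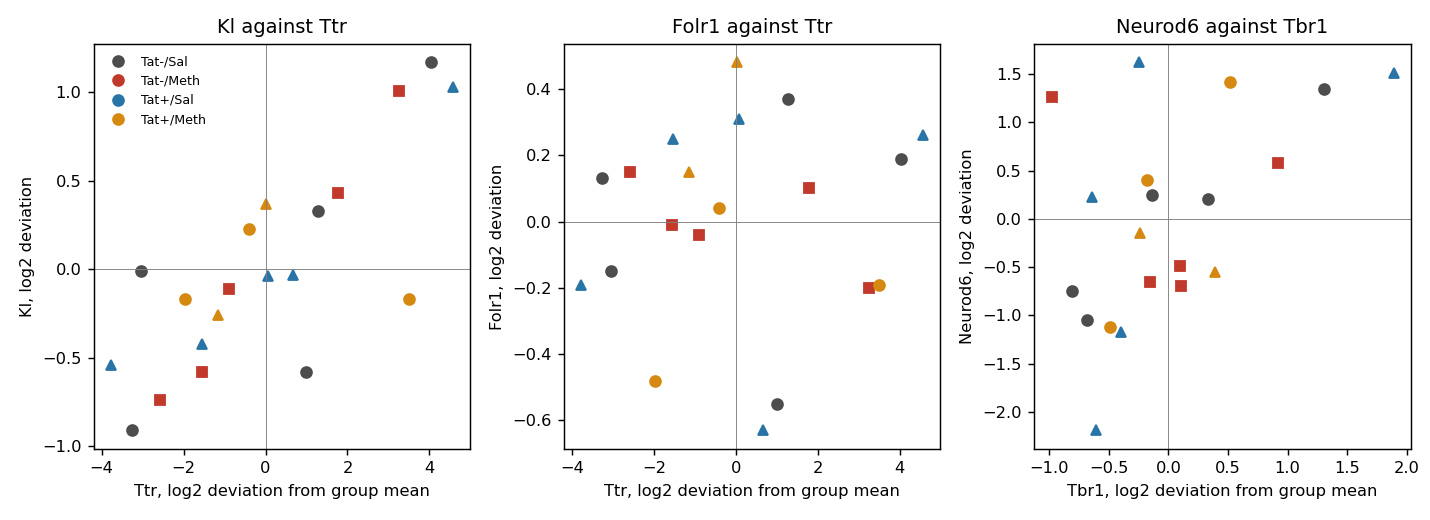
Deviation from the group mean (log2 units) of Kl against Ttr, Folr1 against Ttr and Neurod6 against Tbr1, 1 mark per array, coloured by group, with squares for slide 1, circles for slide 2 and triangles for slide 3. Kl rises with Ttr (r = 0.79), Folr1 does not (r = 0.07), and Neurod6 against Tbr1 lies between (r = 0.51).

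Folr1, the folate receptor that moves folate across the choroid plexus epithelium, did not run with the other choroid plexus genes described. Its brighter probe (NM_001252552) read 9.09, 8.85, 8.90, 8.57 and 8.16 in Tat-/Sal and 8.87, 9.22, 9.06, 9.17 and 9.03 in Tat-/Meth. It read 8.41, 9.29, 8.85, 9.35 and 9.29 in Tat+/Sal and 8.45, 8.74, 8.97, 9.41 and 9.08 in Tat+/Meth. The groups overlapped, and the array lowest in Folr1 was Tat-/Sal replicate 5, where Ttr stood at 10.35. Differences between groups ran from -0.14 to 0.36 log2 units with a standard error of 0.20, and none passed.

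The correlation of Folr1 with Ttr was 0.07 (permutation p = 0.787) and with Kl 0.24 (permutation p = 0.351). Of 10 ependyma genes, 8 had r above 0.5 with Folr1, against 2.74% of all genes. They were Hdc (0.75), Foxj1, the master regulator of motile cilia, Ak7, Rarres2, Ccdc153, Cfap126, Mia and Tmem212. Of 14 choroid plexus genes, Lbp, Calml4, Ecrg4 and Prlr were above 0.5, none of which was among those that ran with Ttr. The log2 of the summed ependyma signal was 13.91 to 14.92 for Tat-/Sal, 14.69 to 15.05 for Tat-/Meth, 14.42 to 15.07 for Tat+/Sal and 14.05 to 14.97 for Tat+/Meth, with Rarres2 making 23.2% to 27.9% of it. Its part in the Folr1 signal was not tested. The closest genes over all were Tuba1c (0.816), Mok (0.792) and Coq8b (0.748).

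**Figure D3:**
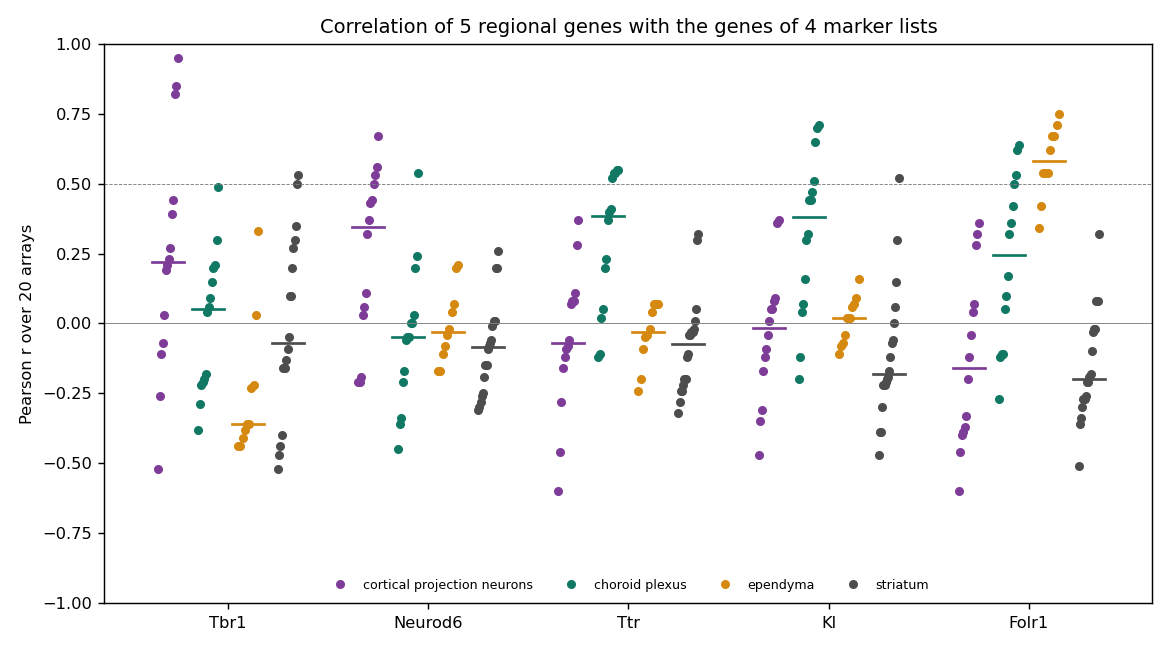
Pearson's r over 20 arrays (vertical axis, deviations from group means) of Tbr1, Neurod6, Ttr, Kl and Folr1 with each gene of 4 marker lists, 1 point per list gene and a bar at the median. Choroid plexus genes lie highest with Ttr and Kl (median 0.38 with each), and ependyma genes lie highest with Folr1 (median 0.58).

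Tbr1, a T-box factor of deep-layer and newly formed glutamatergic neurons, was well above background on all 20 arrays. Its brighter probe read 8.34, 9.01, 9.48, 10.46 and 8.47 in Tat-/Sal and 8.58, 8.32, 8.57, 9.39 and 7.49 in Tat-/Meth. It read 10.05, 7.77, 7.55, 7.52 and 7.91 in Tat+/Sal and 8.45, 7.43, 7.74, 8.32 and 7.69 in Tat+/Meth. Single arrays stood high in 2 groups, Tat-/Sal replicate 4 and Tat+/Sal replicate 1, and the groups overlapped. The other Tbr1 probe was well above background on 4 of 20 arrays, and its deviations had r = 0.42 with those of the brighter one.

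The largest difference of Tbr1 was between Tat+/Meth and Tat-/Sal, -1.23 ± 0.47 log2 units (limma adjusted p = 0.64). It was -1.28 ± 0.47 within slide 2 (adjusted p = 0.543). Tat+/Sal differed from Tat-/Sal by -0.99 ± 0.47 (adjusted p = 0.243). In both, 4 of 5 arrays lay below all Tat-/Sal arrays.

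Neurod6 encodes a basic helix-loop-helix factor of cortical and hippocampal pyramidal neurons and was near the limit of detection, well above background on 12 of 20 arrays. It read 5.56, 6.57, 6.52, 7.66 and 5.27 in Tat-/Sal and 4.83, 4.87, 5.03, 6.10 and 6.79 in Tat-/Meth. It read 7.03, 4.36, 3.33, 5.76 and 7.15 in Tat+/Sal and 6.46, 3.92, 5.44, 4.50 and 4.89 in Tat+/Meth. As for Tbr1, Tat-/Sal replicate 4 and Tat+/Sal replicate 1 were high, but so were Tat+/Sal replicate 5 and Tat-/Meth replicate 5, where Tbr1 was not. The correlation with Tbr1 was 0.51 (permutation p = 0.052, adjusted p = 0.588), and 0.23 without the 2 arrays farthest from the median of Tbr1. Differences between groups ran from -1.27 to -0.48 with a standard error of 0.69, and none passed.

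Among all genes, Tbr1 ran closest with Neurod2 (r = 0.949), a NeuroD-family factor of cortical projection neurons whose log2 signal ran from 6.47 to 9.07. Prss12 (0.894) and Crkl (0.853) followed. Of 14 further genes of cortical projection neurons, Neurod2, Vxn and Slc17a7, the vesicular glutamate transporter of the cortex, had r above 0.5 with Tbr1, against 2.7% of all genes. The same 3 had r above 0.5 with Neurod6, against 2.9% of all genes. Of the 14, 1 was below -0.5 with Tbr1, and the median r was 0.22 with Tbr1 and 0.35 with Neurod6. In other lists 2 of 18 striatum genes, 1 of 10 leptomeninges genes and 1 of 8 hypothalamus genes were above 0.5 with Tbr1. Below -0.5 with it were 1 striatum gene and 1 olfactory bulb gene. The genes closest to Neurod6 over all were Ntn3 (0.813), Prr12 (0.809) and Dffb (0.783). The log2 of the summed signal of the 14 cortical genes was 15.63 to 16.18 for Tat-/Sal, 16.15 to 16.37 for Tat-/Meth, 16 to 16.39 for Tat+/Sal and 15.79 to 16.22 for Tat+/Meth. Nrgn made 55.5% to 72.2% of that sum. The mean log2 signal of the 14 genes spanned 9.48 to 9.92 for Tat-/Sal and 9.49 to 9.93 for Tat-/Meth. It spanned 9.27 to 9.90 for Tat+/Sal and 9.30 to 9.55 for Tat+/Meth. How much cortex each sample held was not tested.

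Emx1, a homeobox factor of the dorsal forebrain, was also dim, well above background on 15 of 20 arrays. It read 5.15 to 5.93 in Tat-/Sal and 5.42 to 6.44 in Tat+/Meth. In Tat-/Meth replicates 1 to 4 read 5.05 to 5.52 and replicate 5 read 7.47. In Tat+/Sal replicate 3 read 7.91 and the others 5.60 to 6.21. The 2 high arrays were low or middling for Tbr1 (7.49 and 7.55), and r with Tbr1 was -0.21 (permutation p = 0.425). Differences between groups ran from -0.54 to 0.75 log2 units with a standard error of 0.42, and none passed. None of the 14 cortical genes had r above 0.5 with Emx1, and the genes closest to it were Rergl (0.908), Cftr (0.905) and Lbh (0.895).

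Cux2, a cut-homeobox factor of upper cortical layers, was well above background on all arrays and varied little. The Tat-/Sal arrays lay at 6.72 to 7.26, those of Tat-/Meth at 6.86 to 7.27, those of Tat+/Sal at 6.55 to 6.98 and those of Tat+/Meth at 6.67 to 6.93. All groups overlapped, and the largest difference was -0.24 ± 0.11 log2 units between Tat+/Sal and Tat-/Sal (adjusted p = 0.238). None of the cortical genes had r above 0.5 with Cux2. Of 18 striatum genes, 8 had r below -0.5 with it, against 5.33% of all genes, and Pdyn, the dynorphin precursor, had 0.58. The closest genes were Acsbg2 (0.916), BC021767 (0.822) and Phykpl (0.762).

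**Figure D4:**
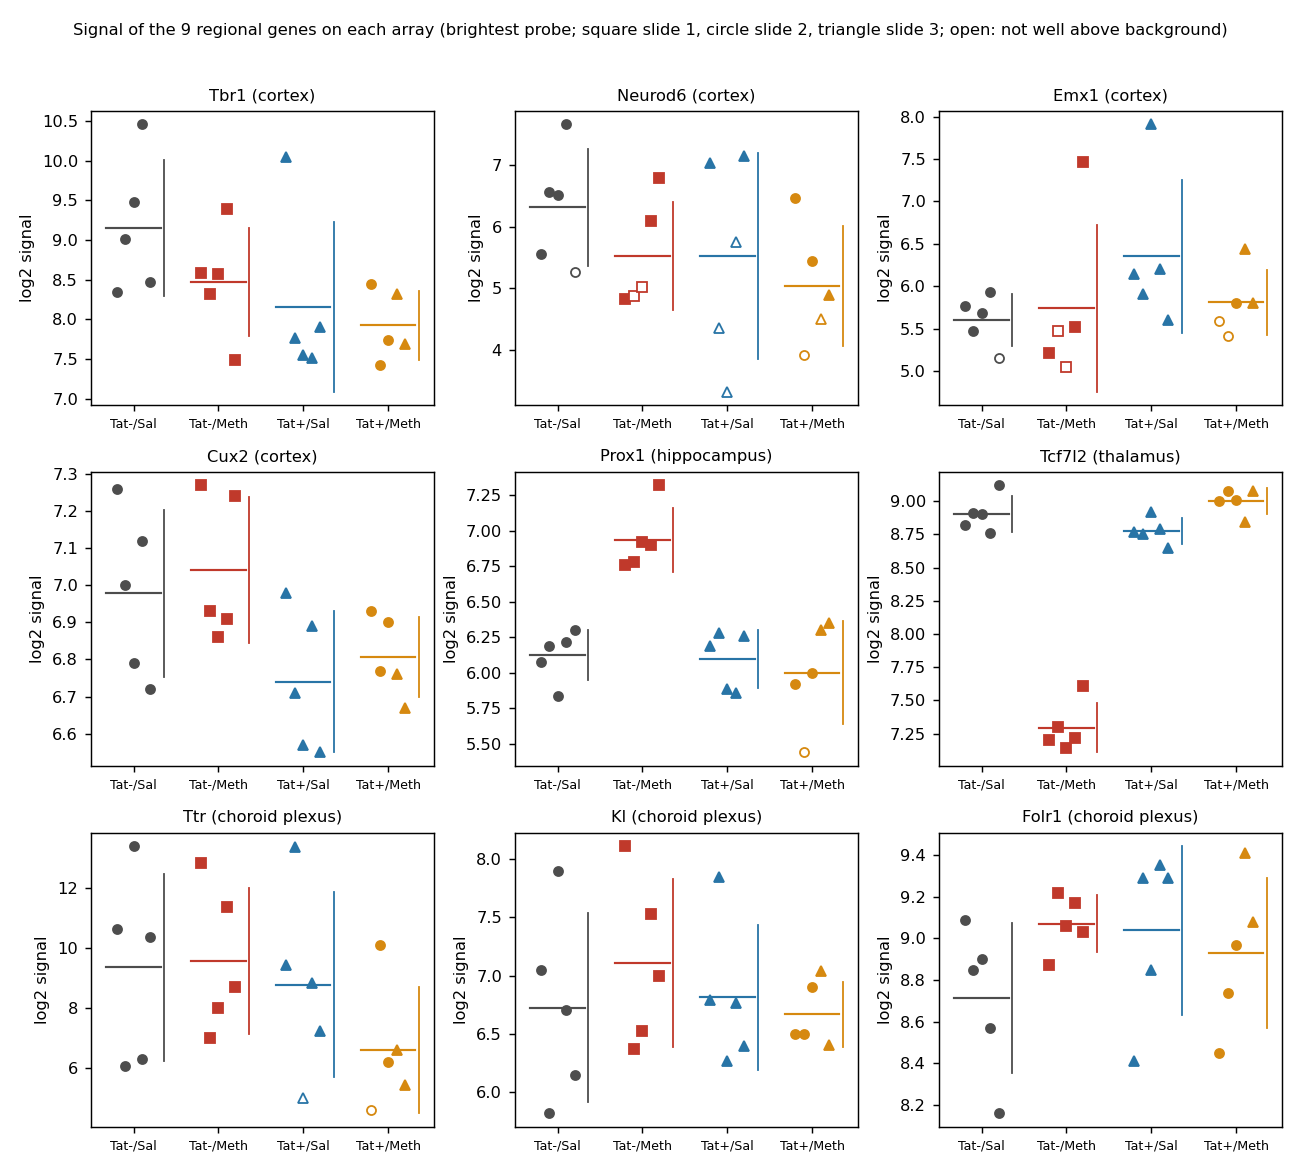
Log2 signal (vertical axes, each with its own range) of the brightest probe of the 9 genes on each of 20 arrays, by group, with the group mean (horizontal line) and SD (vertical line). Squares, circles and triangles mark slides 1, 2 and 3, and open marks are not well above background. Ttr spreads over several units in every group, while Tcf7l2 and Prox1 separate the Tat-/Meth arrays from the rest.

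Prox1, the homeobox factor of dentate granule neurons and also of some interneurons and of lymphatic endothelium, was higher in Tat-/Meth. It read 6.76, 6.78, 6.92, 6.90 and 7.32 there, and 6.08, 6.19, 5.84, 6.22 and 6.30 in Tat-/Sal. It read 6.19, 6.28, 5.89, 5.86 and 6.26 in Tat+/Sal and 5.92, 5.44, 6.00, 6.30 and 6.35 in Tat+/Meth. Every Tat-/Meth array lay above all 15 others, and the other 3 groups overlapped.

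Prox1 rose by 0.81 ± 0.15 log2 units in Tat-/Meth relative to Tat-/Sal (limma adjusted p = 0.000265). In this comparison 50.2% of all genes tested passed the adjusted p, 35% upward, and the median of all genes was 0.14. Tat+/Meth was lower than Tat-/Meth by -0.94 ± 0.15 (adjusted p = 5.48e-05), where 54.4% of all genes passed, 38.5% downward, and the median of all genes was -0.152. The interaction, which is the Meth difference among Tat+ arrays minus the Meth difference among Tat- arrays, was -0.90 ± 0.22 (adjusted p = 0.00333), which 36% of all genes passed and 23.6% downward. These changes were under 2-fold and so were not called. Without scaling of the arrays the first was 0.39 (adjusted p = 0.0867) and the interaction -0.42 (adjusted p = 0.208), with a median of all genes of -0.285 in the first comparison.

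The Prox1 probe also moved with the slide inside Tat+/Meth, at 5.44 to 6.00 on slide 2 and at 6.30 and 6.35 on slide 3. Of 10 genes of the leptomeninges, 5 had r above 0.5 with Prox1 (Ogn, Col1a1, Col1a2, Slc6a13 and Lrrc32), as had all 4 red blood cell genes tested, against 4.28% of all genes. So had 3 of 14 genes of cortical projection neurons (Ccn3, Sv2b and Rorb) and 1 of 6 cerebellum genes (Fat2). The log2 of the summed leptomeninges signal ran from 12.46 to 12.66 in Tat-/Meth and from 12.44 to 12.98 in Tat-/Sal, and that of red blood cells from 17.12 to 18.59 and from 16.99 to 17.70. Dcn made 18.4% to 34.1% of the former sum and Hba-a2 57.4% to 69.2% of the latter. The part of these tissues in the Prox1 signal was not tested. None of the 4 further hippocampal genes tested had r above 0.5 with Prox1, and 1 was below -0.5, against 2.67% of all genes. Below -0.5 were also 2 of 4 genes of midbrain and hindbrain monoamine neurons, 1 of 14 choroid plexus genes and 1 of 6 cerebellum genes. The closest genes were Adamts15 (0.879), Ssh1 (0.835) and Pik3r5 (0.828).

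By the brightest probe of each, Tcf7l2 was the one of the 9 genes called in any comparison. It encodes an HMG-box partner of beta-catenin in Wnt signalling, which thalamic neurons and maturing oligodendrocytes make. The brightest of its 3 probes (NM_001142923) read 7.20, 7.30, 7.14, 7.22 and 7.61 in Tat-/Meth. It read 8.82, 8.91, 8.90, 8.76 and 9.12 in Tat-/Sal, and 8.65 to 8.92 in Tat+/Sal and 8.84 to 9.08 in Tat+/Meth. The Tat-/Meth arrays lay below all the others by more than 1 log2 unit.

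At this probe Tcf7l2 fell in Tat-/Meth relative to Tat-/Sal by 1.61 ± 0.09 log2 units (3.05-fold, adjusted p = 4.71e-11). Of all genes tested 6.85% were called in this comparison and 6.48% were called lower, and of the regional genes 1 of 9 was. Tat+/Meth was above Tat-/Meth by 1.71 ± 0.09 (3.26-fold, adjusted p = 1.82e-11), where 7.22% of all genes were called and 6.75% higher. The interaction was 1.83 ± 0.12 (adjusted p = 3.09e-09), where 7.44% were called and 6.88% upward. The share of regional genes called, 1 of 9, is near these backgrounds. All 3 comparisons use the same 5 Tat-/Meth arrays of slide 1.

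The other probes of Tcf7l2 did not show the fall. The probe for NM_001142918 was higher in Tat-/Meth than in Tat-/Sal by 0.52 ± 0.14 log2 units (adjusted p = 0.00587 over 19799 probes), at 6.07 to 6.28 against 5.48 to 5.81. The probe for NM_001142920 differed by 0.96 ± 0.78 (adjusted p = 0.317), with 3 arrays far above the rest: Tat-/Meth replicate 5 at 9.02, Tat+/Meth replicate 2 at 8.68 and Tat+/Sal replicate 5 at 9.05. The deviations of the 3 probes had r from 0.37 to 0.40 with each other. When the 3 probes were averaged, the difference was -0.04 ± 0.29 (adjusted p = 0.917) and Tcf7l2 was not called in any of the comparisons. Whether the probes read different transcripts was not tested.

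None of the 9 further thalamic genes tested had r above 0.5 with the brightest Tcf7l2 probe, against 10.27% of all genes, and neither had any of 8 oligodendrocyte genes. Of 18 striatum genes 4 were above 0.5 (Penk, Adora2a, Gng7 and Tac1) and 2 below -0.5. Above 0.5 were also 3 of 8 hypothalamus genes, 1 of 14 cortical, 1 of 6 cerebellum and 1 of 3 olfactory bulb genes. In Tat-/Meth against Tat-/Sal, among the thalamic genes, Prkcd rose by 0.50 log2 units (adjusted p = 0.00238) and Lef1, also a partner of beta-catenin, fell by 0.39 (adjusted p = 0.00676). The genes closest to Tcf7l2 were Tmem108 (0.884), Nol10 (0.869) and 1700066M21Rik (0.868).

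**Figure D5:**
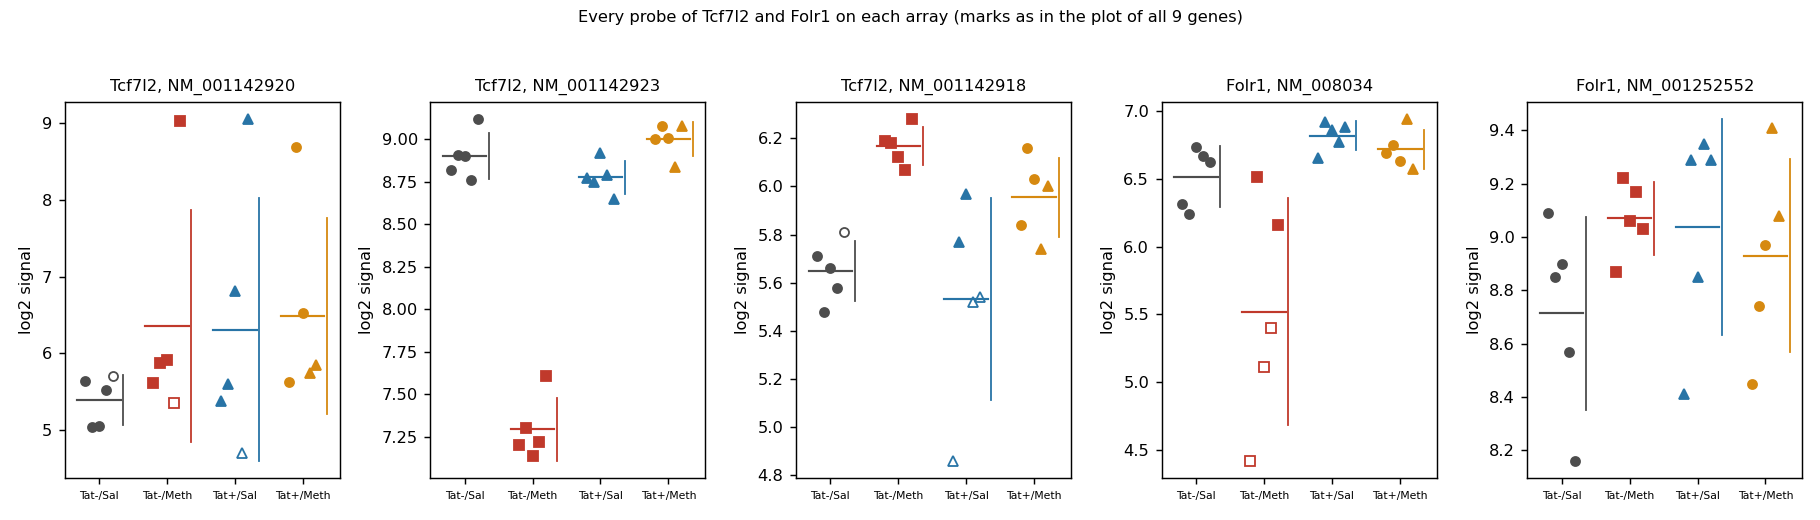
Log2 signal (vertical axes, each with its own range) of the 3 probes of Tcf7l2 and the 2 probes of Folr1 on each array, by group and named by transcript, with group mean and SD and with slides and open marks as for the 9 genes. Tat-/Meth is lowest at 1 Tcf7l2 probe and highest on average at the probe for NM_001142918, and it is lowest at the dimmer Folr1 probe.

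The 2 probes of Folr1 differed in the same way. The dimmer one (NM_008034) differed between Tat-/Meth and Tat-/Sal by -0.99 ± 0.26 log2 units (adjusted p = 0.00431), at 4.42 to 6.51 against 6.24 to 6.73. Tat+/Meth lay above Tat-/Meth at this probe by 1.2 ± 0.26 (adjusted p = 0.000893), a change above 2-fold. On 3 of 5 Tat-/Meth arrays it did not stand well above background, and on all 15 others it did. The brighter one differed by 0.36 ± 0.20 (adjusted p = 0.146), and the deviations of the 2 probes had r = 0.17. None of the 14 choroid plexus genes and none of the 10 ependyma genes had r above 0.5 with the dimmer probe.

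In Tat-/Meth against Tat-/Sal, where 50.2% of all genes passed the adjusted p and 35% upward, the marker lists passed in part. Upward 4 of 18 tested genes of cortical projection neurons passed, and downward 1, Neurod2, which fell by 1.22 log2 units (adjusted p = 0.0111). Bhlhe22, a factor of projection neurons, rose by 0.97 (adjusted p = 0.0321). Of 17 choroid plexus genes 3 passed upward and 2 downward, among them Tmem72, which fell by 3.50 (adjusted p = 4.93e-13), and Prlr, the prolactin receptor, which fell by 0.76 (adjusted p = 6.39e-05). Sostdc1, by contrast, rose by 0.69 (adjusted p = 0.0238). Of 5 hippocampal genes 1 passed upward and 1 downward, and of 10 thalamic genes 1 upward and 2 downward. Of 10 ependyma genes 5 passed upward and none downward, and Pifo, a ciliary protein, was called with a rise of 1.66 (adjusted p = 3.72e-09). Of 18 striatum genes 2 passed upward and 3 downward, and none was called.

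The comparisons without the Tat-/Meth arrays called none of the 9 genes by the brightest probe. In Tat+/Meth against Tat+/Sal 0% of all genes were called in limma, and 12.2% had an unadjusted p under 0.05. In Tat+/Meth against Tat-/Sal the shares were 0% and 7.79%. In Tat+/Sal against Tat-/Sal, which shared no slide, 0.0199% of genes were called and 20.5% had an unadjusted p under 0.05. Tcf7l2 differed by 0.23 ± 0.09 log2 units between Tat+/Meth and Tat+/Sal (adjusted p = 0.307), and by 0.18 ± 0.11 within slide 3. Prox1 differed by -0.09 ± 0.15 in that comparison (adjusted p = 0.846) and by 0.23 ± 0.15 within slide 3.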

How the data were processed

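RNA from 20 mouse brain samples was labelled with Cy3 and hybridised to 1-colour Agilent arrays. The scanner files deposited by the authors hold the spot intensity (raw, background and background-subtracted), and the series values deposited by the authors served as an alternative. The genome build used for the probes is not given in the sources used here. Each array had 62976 spots, 3671 of them controls, and 4278 outlier spots in all were left out. Of 55681 probes, 27656 had 1 symbol through RefSeq. The background-subtracted intensity was divided by the 75th percentile of its array, and log2 was taken. The brightest probe stood for a gene, and a group mean of at least 6 log2 units was required.

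Groups were compared in 1 limma fit (limma 3.58.1, R 4.3.3). Correlations used deviations from group means, permuted within groups 100000 times (numpy 2.4.6, two-sided). In a simulation of Tat-/Meth against Tat-/Sal with 15102 genes, 98% of 200 genes changed by 2 log2 units were called. Its noise was independent between genes and held no slide effect, so it does not bear on slide 1. Replicates were separate mice. Replicate numbers were not taken to pair the samples. Same-numbered arrays had a median r of 0.0435 (range -0.176 to 0.358), and other-numbered ones of -0.0135 (range -0.35 to 0.279). The best match of 8 arrays carried their own number. The methods and labels describe different age, tissue, timing and injections, and the labels were followed. The methods also name a different dye, array format and image software from those of the deposited records. The 9 genes and all marker lists were chosen with earlier results of these data known. All 9 genes are named with every probe, as are the 3 genes with the highest r with each, and list genes by the largest spread or change or by r above 0.5. The lists also included hypothalamus genes (7 of 10 well above background on all arrays) and olfactory bulb genes (3 of 5). The alternatives were other scalings, normexp, the series values, other filters, probe rules, thresholds and tests, slide and replicate blocks, and each array left out in turn. Fits within slides were added after seeing the data.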

Additional observations from a re-analysis of the deposited data

Results flagged for a closer look

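Among 52 groups of 5 arrays, 5 had 1 array apart from its group by Dixon's criterion, and chance gives about 5% of groups. Tbr1 read 10.05 in Tat+/Sal replicate 1 against 7.52 to 7.91 in the other 4. Emx1 read 7.47 in Tat-/Meth replicate 5 against 5.05 to 5.52, and 7.91 in Tat+/Sal replicate 3 against 5.60 to 6.21. Prox1 read 7.32 in Tat-/Meth replicate 5 against 6.76 to 6.92. The Tcf7l2 probe for NM_001142920 read 9.02 in the same Tat-/Meth replicate 5 against 5.35 to 5.92. Of these 5 cases, 3 fall on that array, on which 70.9% of probes were well above background, against 56.4% to 60.2% on the other 4 of slide 1. The part of that share in these values was not tested.

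The interaction passed for Prox1 (-0.90 log2 units, limma adjusted p = 0.00333) and for the brightest Tcf7l2 probe (1.83, adjusted p = 3.09e-09). The Tat-/Meth arrays, all on slide 1, enter both. An effect of Meth that differs between Tat+ and Tat- mice thus cannot be told apart from an effect of slide 1.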

How the results depend on the processing

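In all, 196 log2 fold changes of Prox1 and Tcf7l2 that passed the adjusted p were recomputed under an alternative. They used the brightest probe of a gene or the mean over its probes, never a dimmer probe alone. None changed direction and 191 still passed. The 5 that did not were those of Prox1 without scaling (0.39 in Tat-/Meth against Tat-/Sal and -0.42 in the interaction) and of Tcf7l2 as the mean over its probes (-0.04 and, in Tat+/Meth against Tat-/Meth and the interaction, 0.54 and 0.32). The dimmer Tcf7l2 probes on their own, for NM_001142918 and NM_001142920, differed by 0.52 and 0.96 in Tat-/Meth against Tat-/Sal, opposite to the brightest probe. In Tat+/Meth against Tat-/Meth they differed by -0.21 and 0.13, and in the interaction by -0.09 and -0.79. With the mean over probes the count of genes called in these 3 comparisons went from 1 to 0. With no fold limit it was 2 in each, Prox1 being added. In Tat+/Meth against Tat-/Meth and in the interaction it was also 2 under quantile normalization and under median scaling, and in the interaction with slide as a random block. With each array omitted in turn it was 1 to 2 in Tat+/Meth against Tat-/Meth, with 2 found without Tat+/Meth replicate 4 or without replicate 5, 1 in Tat-/Meth against Tat-/Sal and in the interaction, and 0 in the other comparisons. The methods' t-test without adjustment gave 1 in Tat+/Meth against Tat-/Sal, and after Benjamini-Hochberg 0. The replicate block left the counts at 1, 1 and 1 in the 3 comparisons with Tat-/Meth and at 0 in the others. Slide as a fixed block could not be fitted for the comparisons with Tat-/Meth.

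Differences of the 9 genes that did not pass were less steady, and 76 of 1704 recomputed values changed sign. Of the 36 correlations between the 9 genes, 23 changed sign under at least 1 of 4 other treatments of the signal, among them that of Tbr1 with Tcf7l2 (-0.50, and 0.24 with median scaling). The correlations with list genes were not recomputed. The correlation of Ttr and Kl ran from 0.594 to 0.948 over 27 alternatives. Ttr had the largest SD within groups under all 4 other treatments of the signal. With normexp, which compresses dim signals, the SD was lower for Neurod6 (0.485), Emx1 (0.404), Kl (0.412) and Prox1 (0.153). The dimmer Tbr1 probe was well above background on 4 arrays, Neurod6 on 12 and Emx1 on 15. The dimmer Folr1 probe was so on 17 arrays, and the Tcf7l2 probes for NM_001142920 and NM_001142918 on 17 and 16. Of the 5 Tat-/Meth arrays, the dimmer Folr1 probe was so on 2, and these Tcf7l2 probes on 4 and 5. Values that do not stand well above background carry little order.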
